A study of Homo sapiens with 112 samples.

Results

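The expression of 10 enzyme genes of androgen synthesis and glucuronidation was followed in 2 human prostate cancer cell lines during treatment with a synthetic androgen and an antiandrogen. The genes were taken by symbol from the RNA-seq count table of 58684 genes, which lists all 10 of them: SRD5A1, SRD5A3, AKR1C3, HSD17B6, HSD17B10, HSD17B11, UGT2B11, UGT2B15, UGT2B17 and UGT2B28. VCaP and LAPC4 are established cell lines that respond to androgen, and each line stands for 1 tumour. All groups first spent 2 days without hormone, in 10% charcoal-stripped serum. They then received vehicle (DMSO), the synthetic androgen R1881 at 1 nM, or the same R1881 together with darolutamide at 500 nM or 2 µM. Darolutamide is an antiandrogen given against prostate cancer. At 8 h, VCaP was represented by 10 DMSO, 10 R1881, 4 low-dose and 5 high-dose darolutamide libraries, and at 22 h by 8, 9, 4 and 5. LAPC4 was represented by 10, 10, 5 and 5 libraries at 8 h and by 7, 10, 5 and 5 at 22 h. Nothing in the labels says which libraries came from separate cultures, so p-values measure only the spread between these libraries, which may be technical.

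Androgen-dependent tissues make their most potent androgen, dihydrotestosterone, from weaker precursors. AKR1C3 reduces androstenedione to testosterone, and SRD5A1 is a steroid 5α-reductase. SRD5A3 shares this family name and also makes dolichol for protein glycosylation. HSD17B6 can oxidise androstanediol back to dihydrotestosterone, HSD17B11 oxidises the 17β-hydroxyl group of androgens, and HSD17B10 is a mitochondrial dehydrogenase that is also a subunit of mitochondrial ribonuclease P. Androgens leave the cell's active pool through glucuronidation, in which UGT2B15 and UGT2B17 attach glucuronic acid to dihydrotestosterone and its metabolites. UGT2B28 and UGT2B11 are close relatives from the same cluster on chromosome 4.

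The 4 UGT2B genes form near-identical pairs, which matters for counts from reads of 50 bases. On GRCh38 with the GENCODE 44 annotation, UGT2B15 lies at chr4:68646597-68670652 and UGT2B17 at chr4:68537173-68576413, both on the minus strand, and their coding sequences agree at 96.5% of 1590 aligned bases. UGT2B11 lies at chr4:69199951-69214748 on the minus strand and UGT2B28 at chr4:69280475-69295050 on the plus strand, and their coding sequences agree at 97% of 1587 bases. The coding stretches below show how far a read could separate the members of each pair. They were read from GRCh38 along the coding strand, and capitals mark the bases that differ from the other member.
UGT2B15: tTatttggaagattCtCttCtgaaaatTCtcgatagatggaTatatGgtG
UGT2B17: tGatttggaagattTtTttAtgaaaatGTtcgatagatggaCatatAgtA
UGT2B11: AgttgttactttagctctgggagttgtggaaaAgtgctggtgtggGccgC
UGT2B28: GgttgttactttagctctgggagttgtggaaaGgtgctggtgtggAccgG
The first pair of stretches spans chr4:68670318-68670367 in exon 1 of UGT2B15 and chr4:68568184-68568233 in exon 2 of UGT2B17, and holds 9 differences. The second spans chr4:69214631-69214680 and chr4:69280543-69280592, in exon 1 of either gene, and holds 4. Elsewhere the pairs are closer, and of all 50-base stretches in the exons of a gene, 27.1% for UGT2B15, 23.3% for UGT2B17, 40.5% for UGT2B11 and 35.2% for UGT2B28 also occur in another annotated gene. The same share was 39.2% for SRD5A3, nearly all of it with an overlapping readthrough gene that is not in the table, 18.6% for AKR1C3 and at most 4.04% for the other 4 genes. Levels of the 4 UGT2B genes, SRD5A3 and AKR1C3 are therefore uncertain by whatever the counting did with such reads, which the sources used here do not give.

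UGT2B15 and UGT2B11 moved in opposite directions with R1881 and are the UGT2B members for which a promoter sequence was given, so the 250 bases before their starts are shown. They come from RefSeq on GRCh38.p14, 5′ to 3′ along the gene, at chr4:68670653-68670902 and chr4:69214749-69214998 on the minus strand, and capitals mark AGAACA, the core of the androgen response element.
UGT2B15: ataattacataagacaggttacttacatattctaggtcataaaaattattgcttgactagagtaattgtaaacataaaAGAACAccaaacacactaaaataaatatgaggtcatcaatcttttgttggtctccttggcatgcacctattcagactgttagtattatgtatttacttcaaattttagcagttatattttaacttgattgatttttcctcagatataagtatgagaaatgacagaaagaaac
UGT2B11: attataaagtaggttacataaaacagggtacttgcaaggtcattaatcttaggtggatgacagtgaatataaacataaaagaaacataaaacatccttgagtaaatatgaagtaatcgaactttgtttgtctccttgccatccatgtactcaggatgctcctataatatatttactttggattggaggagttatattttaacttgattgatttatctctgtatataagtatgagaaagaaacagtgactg
Promoters of 300 bases were given for 7 of the 10 genes and were searched on both strands. UGT2B15 was the 1 member of the 7 with AGAACA, a motif held by 14.8% of 35116 promoters of that length, and none of the 7 held the full palindrome of GNACA and TGTNC with 3 bases between, which 0.39% of promoters held. A match describes these letters only.

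Library totals ranged from 12188455 to 25201678 reads with a median of 20144050.5. The 2 reductases, AKR1C3 and the 3 HSD17B genes had at least 10 reads in all 55 VCaP libraries. UGT2B15 reached 10 reads in 46, UGT2B17 in 41, UGT2B11 in 25 and UGT2B28 in 7 of them. All members but AKR1C3 reached 10 reads in all 57 LAPC4 libraries, while AKR1C3 had 0 or 1 read per LAPC4 library and was not tested there. The epithelial markers EPCAM, KRT8 and KRT18 were abundant in both lines, and ERG, which the VCaP fusion drives, had 1578 to 21554 reads in VCaP and 0 or 1 in LAPC4. Of 11 markers of other cell types, COL1A2, HBB and CD3E were at 0 in every VCaP library. The summed level of the 11 in VCaP was 140 to 154 CPM (reads of a gene scaled to the library total with TMM factors) with DMSO for 22 h and 4.85 to 6.26 with R1881, and 2 genes made up most of it. The liver marker ALB went from between 114 and 125 to between 2.22 and 3.22 CPM and the stromal marker LUM from between 24.4 and 28.8 to between 0.0999 and 0.332. The other 9 markers together were higher with R1881 at 22 h, at 2.02 to 3.36 CPM against 0.764 to 1.63 with DMSO. At 8 h these 9 tended the other way, at 0.279 to 0.852 CPM with R1881 against 0.821 to 1.49 with DMSO. The part of these markers in the results below was not tested. In these bulk libraries, fewer cells of a type and less RNA per cell cannot be told apart.

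In VCaP cells UGT2B15, UGT2B17, AKR1C3, HSD17B6 and SRD5A3 fell with R1881 at both times, HSD17B10, HSD17B11, UGT2B11 and UGT2B28 rose, and SRD5A1 was higher at 8 h and lower at 22 h. All 10 genes passed the test at both times, against 66.9% of the 19266 genes tested at 8 h and 77.4% at 22 h. UGT2B28 had too few reads with DMSO to enter the test on those libraries alone, which favours its call. At 8 h 5 rose and 5 fell, and at 22 h 4 rose and 6 fell. The median log2 fold change of the 10 was -0.39 at 22 h, where that of all genes tested was -0.03. With such backgrounds the count itself does not set the 10 genes apart, and the results lie in the sizes. Lack of overlap between groups was determined for these genes only and not over all genes, so it only describes the libraries. Throughout, an edgeR adjusted p is from its quasi-likelihood test after Benjamini-Hochberg adjustment over all genes tested, fold changes are log2 values from that fit with their standard error (SE), and levels are CPM.

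**Figure D1:**
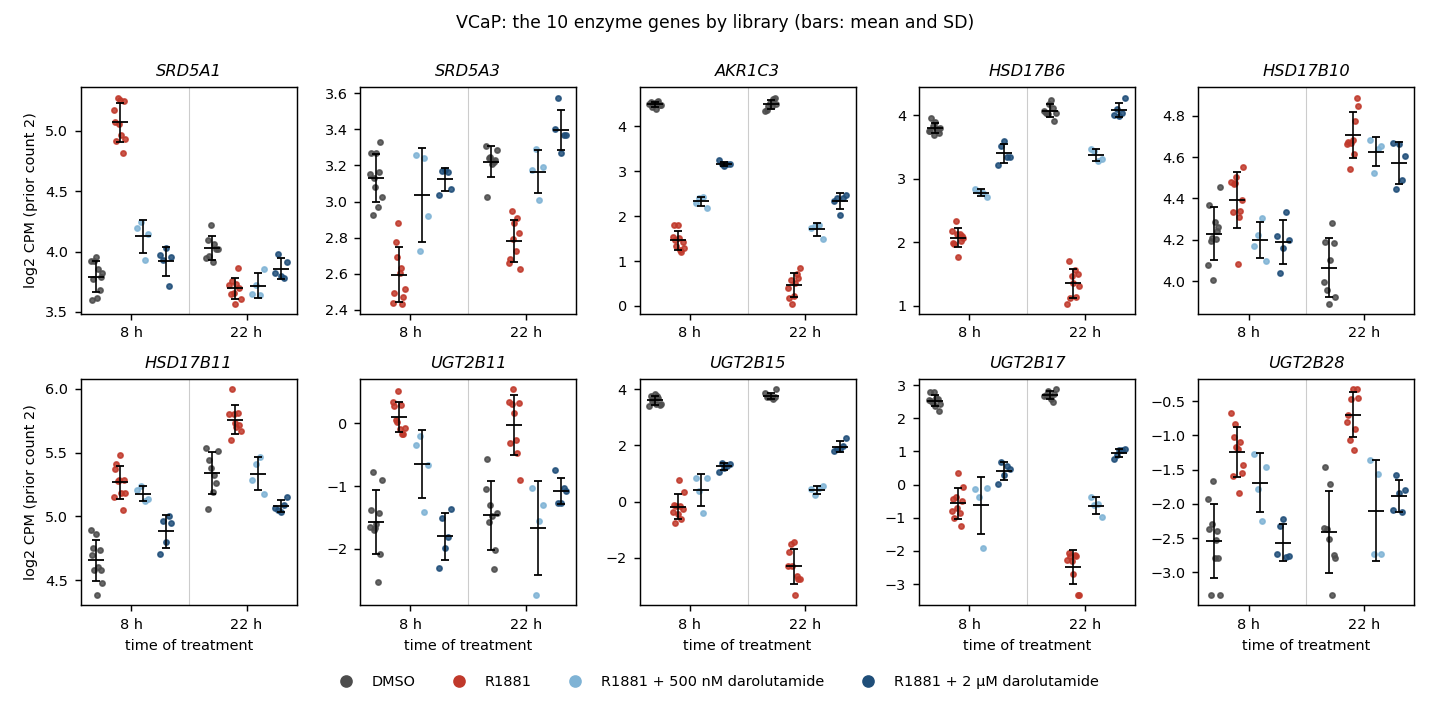
Log2 CPM of the 10 enzyme genes in each VCaP library (points) with the mean and SD of each of the 8 groups, coloured by treatment. With R1881 for 22 h the UGT2B15 and UGT2B17 points lie below every DMSO point, and SRD5A1 lies above DMSO at 8 h and below it at 22 h.

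SRD5A1 was the 1 gene of the 10 whose R1881 change had opposite signs at the 2 times in VCaP. At 8 h it ranged from 12.0 through a median of 13.9 to 15.4 CPM with DMSO and from 28.03 through 33.4 to 38.6 with R1881, so that every R1881 library lay above every DMSO library. This was a log2 fold change of 1.29 (SE 0.0546, n = 10 and 10, edgeR adjusted p = 1.3e-28). At 22 h the order turned, with 14.9, 16.1 and 18.6 CPM as lowest, median and highest value with DMSO and 11.8, 12.8 and 14.4 with R1881. Again the groups did not overlap, at a log2 fold change of -0.34 (SE 0.0616, edgeR adjusted p = 2.43e-06). The effect at 22 h minus that at 8 h was -1.62 (SE 0.0822, edgeR adjusted p = 1.5e-24), and 60.4% of all genes tested passed this test of the difference. With darolutamide for 8 h SRD5A1 stood at 18.2, 18.8, 15.2 and 17.6 CPM at 500 nM and 15.6, 15.1, 16.2, 13.0 and 15.4 CPM at 2 µM, all below the R1881 libraries. At 22 h 2 µM gave 14.0, 15.7, 13.8, 13.6 and 14.9 CPM, and the difference of 0.17 from R1881 (edgeR adjusted p = 0.0321) was lost when any of replicates 1, 2 and 5 of that dose was left out (0.10 to 0.16).

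SRD5A3 fell in VCaP at both times. Levels at 22 h ranged from 8.03 through 9.31 to 9.82 CPM with DMSO and from 6.08 through 6.84 to 7.63 with R1881, without overlap. The log2 fold change was -0.44 (SE 0.0678, edgeR adjusted p = 5.83e-08), beside -0.55 at 8 h. With 2 µM darolutamide for 22 h SRD5A3 stood at 10.5, 11.8, 9.54, 10.2 and 10.2 CPM, above all R1881 libraries (log2 fold change 0.62, edgeR adjusted p = 1.44e-10). SRD5A3-AS1 overlaps 1082 exon bases of SRD5A3 on the opposite strand, and the strand setting of the counting is not given in the sources used here. The same limit holds for HSD17B6, of which PRIM1 overlaps 132 exon bases on the opposite strand. A long non-coding gene that is not in the count table overlaps 435 exon bases of UGT2B11 in this way.

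In LAPC4 both reductases were higher than in VCaP and moved little. SRD5A1 ranged from 42.7 through 44.4 to 46.0 CPM with DMSO for 22 h and from 44.9 through 48.4 to 50.4 with R1881, with overlap. The fold change of 0.12 (SE 0.0267, edgeR adjusted p = 0.000466) did not pass with control libraries numbered 6 and above alone (0.12, adjusted p = 0.133). Its size was the same there, and of the DMSO libraries at 22 h that subset holds only numbers 6 and 7. SRD5A3 lay between 29.5 and 39.3 CPM in all LAPC4 libraries and did not pass the test with R1881 at 22 h (-0.07, edgeR adjusted p = 0.222).

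AKR1C3, at chr10:5035354-5107686 on the plus strand, fell in VCaP with R1881 and was less reduced where darolutamide was given together with R1881. With DMSO for 22 h it ranged from 20.3 through 22.3 to 24.8 CPM, and with R1881 from 0.939 through 1.33 to 1.70 CPM, which was 18 to 35 reads per library. No libraries overlapped, and the log2 fold change was -4.11 (SE 0.0788, n = 8 and 9, edgeR adjusted p = 2.36e-45). At 8 h the change was -3.07 (SE 0.0655, edgeR adjusted p = 4.98e-43), and the further decrease between the times was called (-1.04, SE 0.108, adjusted p = 2.51e-12). At 22 h 500 nM darolutamide gave 3.25, 3.35, 3.40 and 2.69 CPM and 2 µM gave 4.95, 5.22, 3.98, 5.23 and 5.44 CPM. Each high-dose library stood above each low-dose library, and all stood above R1881 and below DMSO. Mean AKR1C3 at 22 h was 5.80% of the DMSO mean with R1881 and 22.2% with 2 µM darolutamide. At 8 h these shares were 12.0% and 39.7%, so the level with 2 µM was also lower at the later time.

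HSD17B6, at chr12:56752161-56787790 on the plus strand, fell in VCaP at both times and stood at the DMSO level with the high dose at 22 h. At 22 h its VCaP levels ranged from 14.9 through 16.5 to 18.8 CPM with DMSO and from 1.95 through 2.47 to 3.18 CPM with R1881. This gap between the groups was a log2 fold change of -2.74 (SE 0.0706, edgeR adjusted p = 4.04e-39), beside -1.74 (SE 0.0612) at 8 h. With 500 nM darolutamide the 22 h libraries held 11.05, 10.7, 9.67 and 9.85 CPM and with 2 µM 15.97, 17.04, 15.87, 16.4 and 19.4 CPM. The high-dose values lay within or just above the DMSO range, and their difference from DMSO was 0.01 with a 95% interval of -0.12 to 0.15, and its sign turned in 7 alternatives. At 8 h the high dose had not closed the gap, at 9.24, 11.3, 12.0, 10.1 and 10.1 CPM against 12.9 to 15.5 CPM with DMSO (log2 fold change -0.39, edgeR adjusted p = 6.56e-06). In LAPC4 HSD17B6 had 27 to 70 reads per library and did not pass with R1881 at 22 h (0.10, edgeR adjusted p = 0.66).

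HSD17B10, on chromosome X, and HSD17B11 rose in VCaP. HSD17B10 ranged from 14.7 through 16.4 to 19.3 CPM with DMSO for 22 h and from 23.2 through 25.4 to 29.5 CPM with R1881. All R1881 libraries were higher, at a log2 fold change of 0.64 (SE 0.0591, edgeR adjusted p = 1.56e-14). At 8 h the groups overlapped and the change of 0.17 was 0.05 with control libraries numbered 6 and above alone (adjusted p = 0.573). With darolutamide for 22 h HSD17B10 stood at 25.3, 21.7, 25.2, 22.4 and 24.2 CPM with 2 µM, all above the DMSO libraries. The difference from R1881 (-0.14, edgeR adjusted p = 0.0648) did not pass, but did without 2 µM replicate 1, 3 or 5 (-0.16 to -0.18), with filterByExpr, with a GC slope and with control libraries 6 and above (-0.19, adjusted p = 0.0331).

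HSD17B11 ranged from 33.2 through 40.7 to 46.3 CPM with DMSO and from 48.4 through 53.2 to 63.8 CPM with R1881 at 22 h in VCaP. The groups did not overlap, and the log2 fold change was 0.42 (SE 0.0615, edgeR adjusted p = 2.37e-08), beside 0.61 at 8 h. With 2 µM darolutamide for 22 h it stood at 33.3, 33.1, 32.6, 34.0 and 35.5 CPM, around the low end of the DMSO range (-0.27 against DMSO, edgeR adjusted p = 0.00139). In LAPC4 neither gene passed with R1881 at 22 h, HSD17B10 at -0.01 and HSD17B11 at 0.11, which was -0.12 with control libraries 6 and above, with 22 to 54 reads per library.

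UGT2B15 and UGT2B17 showed the largest R1881 changes of the 10 genes in VCaP. UGT2B15 ranged from 12.5 through 13.3 to 15.95 CPM with DMSO for 22 h and from 0 through 0.104 to 0.269 CPM with R1881, which was 2132 reads over 8 libraries against 20 over 9. Its log2 fold change was -6.75 (SE 0.184, edgeR adjusted p = 7.54e-38), or 108-fold lower. UGT2B17 went from between 5.51 and 7.26 CPM, median 6.36, to between 0 and 0.140 CPM, median 0.106, or 1000 reads over 8 libraries against 14 over 9. The corresponding change was -6.14 (SE 0.213, edgeR adjusted p = 6.58e-33), or 70.7-fold lower, and in neither gene did the groups overlap. With so few R1881 reads, the ratio of UGT2B17 to UGT2B15 reads in that group, 0.700, and at 8 h, 0.733, rests on few counts, and with DMSO for 22 h it was 0.469.

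The decrease of both genes was already present at 8 h and grew. At 8 h UGT2B15 ranged from 10.4 through 12.2 to 14.3 CPM with DMSO and from 0.4931 through 0.760 to 1.62 CPM with R1881 (log2 fold change -3.87, SE 0.124, edgeR adjusted p = 2.39e-34). UGT2B17 ranged from 4.56 through 5.71 to 6.78 and from 0.323 through 0.563 to 1.17 CPM (-3.23, SE 0.139, edgeR adjusted p = 2.96e-28). Between 8 and 22 h the effect changed by a further -2.88 (SE 0.293) for UGT2B15 and -2.92 (SE 0.329) for UGT2B17, both called. DMSO levels did not pass the test between the times (0.17 and 0.16, edgeR adjusted p = 0.199 and 0.276).

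At 22 h UGT2B15 and UGT2B17 stood higher with darolutamide than with R1881 alone, in order of dose, without reaching DMSO levels. There UGT2B15 was at 1.26, 1.07, 1.29 and 1.37 CPM with 500 nM and 3.37, 3.56, 3.57, 3.88 and 4.73 CPM with 2 µM. UGT2B17 was at 0.678, 0.558, 0.575 and 0.406 CPM with 500 nM and 1.62, 1.74, 1.944, 1.9598 and 2.015 CPM with 2 µM. In both genes the 2 doses did not overlap with each other, with R1881 or with DMSO. Against R1881, 2 µM raised UGT2B15 by 4.91 (SE 0.228, edgeR adjusted p = 1.52e-26) and UGT2B17 by 4.36 (SE 0.273, adjusted p = 7.43e-21). Against DMSO both remained lower, with log2 fold changes of -1.84 (SE 0.13) and -1.79 (SE 0.15), at 28.1% and 29.0% of the DMSO mean.

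At 8 h this pair stood little or not at all higher with the low dose than with R1881 alone. The low-dose levels themselves were alike at the 2 times, and those with R1881 alone were lower at 22 h. Scaled over both lines together, mean UGT2B15 with 500 nM was 1.39 CPM at 8 h and 1.35 at 22 h, against 0.885 and 0.132 with R1881. Mean UGT2B17 was 0.662 and 0.601 CPM, against 0.652 and 0.0965. With 500 nM UGT2B17 stood at 0.814, 0.675, 0.166 and 0.841 CPM, within or below the R1881 range, and did not pass against R1881 (0.06, edgeR adjusted p = 0.895). UGT2B15 stood at 1.69, 1.21, 0.664 and 1.68 CPM, and its difference of 0.67 (edgeR adjusted p = 0.00989) was lost without low-dose replicate 1 or 4 (0.55 and 0.50) and with control libraries 6 and above alone (0.43, adjusted p = 0.175). With 2 µM UGT2B15 rose by 1.46 and UGT2B17 by 1.03, to 1.99, 2.52, 2.19, 2.32 and 2.44 CPM and to 0.919, 1.51, 1.12, 1.39 and 1.29 CPM. The UGT2B15 values lay above all R1881 libraries, while the UGT2B17 values overlapped with them.

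LAPC4 cells gave the same directions for this pair at 22 h, with smaller changes. UGT2B15 ranged from 18.6 through 22.0 to 23.5 CPM with DMSO and from 12.2 through 12.9 to 15.9 CPM with R1881, and UGT2B17 from 7.39 through 8.25 to 8.81 and from 4.56 through 5.33 to 5.84 CPM. Neither gene overlapped between the groups, at log2 fold changes of -0.69 (SE 0.0636, edgeR adjusted p = 5.15e-13) and -0.60 (SE 0.0822, adjusted p = 6.24e-08). At 8 h neither passed the test (-0.18 and -0.12, edgeR adjusted p = 0.105 and 0.683), though UGT2B15 passed with a GC slope (-0.20, adjusted p = 0.00625) and UGT2B17 was at 0.01 with control libraries 6 and above alone. The effect at 22 h minus that at 8 h was -0.51 for UGT2B15 (edgeR adjusted p = 5.4e-05) and -0.48 for UGT2B17 (0.00497), and the UGT2B17 value was lost with control libraries 1 to 5 (-0.36, adjusted p = 0.399) or 6 and above (-0.54, 0.0839). Levels with R1881 differed little between the times, while those with DMSO rose. Scaled over both lines together, mean UGT2B15 at 8 h and 22 h was 12.7 and 12.3 CPM with R1881, against 14.3 and 20.1 with DMSO. Mean UGT2B17 was 5.22 and 4.96 CPM, against 5.66 and 7.63. The R1881 effect at 22 h in VCaP minus that in LAPC4 was -6.03 for UGT2B15 and -5.51 for UGT2B17 in a joint fit, both called.

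UGT2B11 and UGT2B28 rose with R1881 and were abundant in LAPC4 and scarce in VCaP. In LAPC4 UGT2B11 ranged from 130 through 147 to 157 CPM with DMSO for 22 h and from 221 through 239 to 259 CPM with R1881. UGT2B28 ranged from 33.0 through 38.0 to 40.4 and from 58.8 through 64.1 to 68.1 CPM. Every R1881 library exceeded every DMSO library for both, at log2 fold changes of 0.71 (SE 0.0435, n = 7 and 10, edgeR adjusted p = 7.52e-20) and 0.79 (SE 0.0484, adjusted p = 6.5e-20). The rises were already called at 8 h, at 0.35 (SE 0.0395) and 0.38 (SE 0.0446), again without overlap. They were larger at 22 h, as were the changes of UGT2B15 and UGT2B17, so that 4 of 9 genes were called for this difference beside 3.21% of all genes. These 4 form 2 near-identical pairs, and the members were chosen with earlier results of these data known, so the count is no separate support. The difference was 0.36 (edgeR adjusted p = 2.04e-05) for UGT2B11 and 0.42 (1.22e-05) for UGT2B28, but with control libraries 6 and above alone these differences of 0.36 and 0.39 both had an adjusted p of 0.0793. Across the 8 LAPC4 groups there were on average 0.253 to 0.277 UGT2B28 reads per UGT2B11 read, and these 2 genes share reads as described above.

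With 2 µM darolutamide for 22 h LAPC4 UGT2B11 was at 144, 157, 145, 157 and 135 CPM and UGT2B28 at 38.1, 39.9, 37.2, 38.4 and 33.9 CPM. All lay below the R1881 libraries. The UGT2B28 values were inside the DMSO range, and of the UGT2B11 values the highest 2 were just above it and the others inside. Differences from DMSO were 0.02 (95% interval -0.08 to 0.12) for UGT2B11 and 0.02 (-0.09 to 0.14) for UGT2B28. In VCaP both genes also rose, by 1.68 (SE 0.251) and 2.32 (SE 0.334) at 22 h, but from 44 and 16 reads summed over the 8 DMSO libraries to 153 and 90 over the 9 R1881 libraries, and the UGT2B11 groups overlapped.

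**Figure D2:**
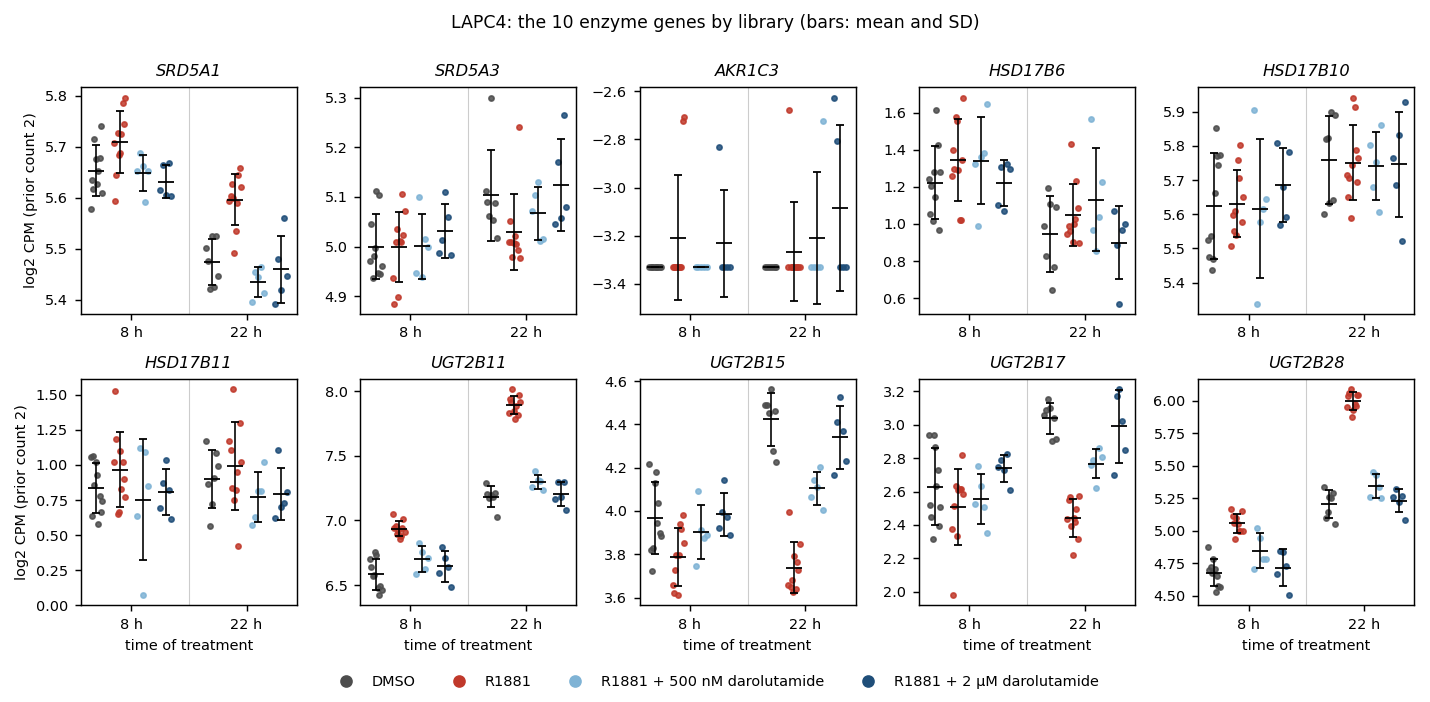
Log2 CPM of the 10 enzyme genes in each LAPC4 library (points) with the mean and SD of each of the 8 groups, coloured by treatment. UGT2B11 and UGT2B28 lie higher with R1881 than with DMSO and UGT2B15 and UGT2B17 lie lower at 22 h, while AKR1C3 stays at 0 or 1 read.

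In LAPC4 as a whole, 2 of the 9 genes tested were called with R1881 at 8 h, against 2.64% of the 18204 genes tested, and 5 at 22 h, against 13.3%. The 5 were the 4 UGT2B genes, which form 2 near-identical pairs, and SRD5A1, with 3 higher and 2 lower. The median over the 9 was 0.10 beside 0.01 for all genes. Under 2 µM darolutamide, UGT2B11 and UGT2B28 at 8 h, and the 4 UGT2B genes and SRD5A1 at 22 h, were called against R1881 in the direction opposite to their R1881 change. Of all genes, 1.54% and 10.5% were called in this comparison in either direction. Both comparisons share the R1881 libraries. At 500 nM 1 gene was called at 8 h (UGT2B11, -0.24) and 5 at 22 h, beside 0.626% and 5.89% of all genes. The 8 h call was lost with control libraries 6 and above alone (-0.22, edgeR adjusted p = 0.0964), and the 22 h call of UGT2B17 (0.32, adjusted p = 0.0219) without replicate 2, 4 or 5 of the dose (0.31 to 0.32).

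**Figure D3:**
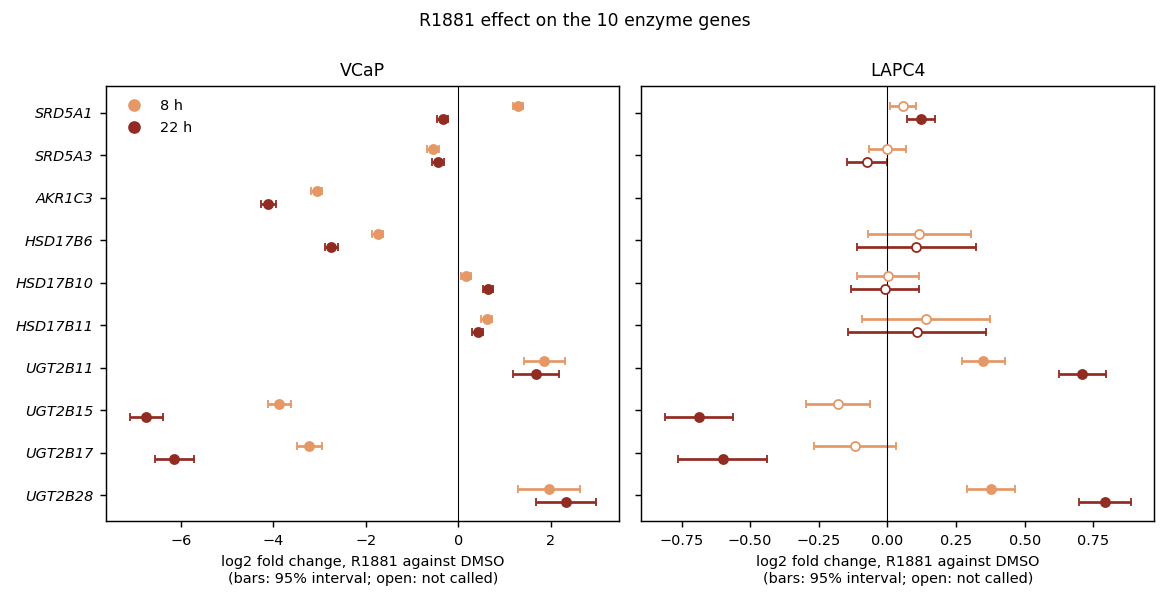
Log2 fold change of each gene with R1881 against DMSO at 8 h and 22 h, with 95% intervals, for VCaP and LAPC4 on separate horizontal scales, where open points did not pass the test. UGT2B15 and UGT2B17 reach -6.75 and -6.14 in VCaP and -0.69 and -0.60 in LAPC4 at 22 h.

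In VCaP 2 µM darolutamide changed all 10 genes against R1881 at 8 h and 9 at 22 h, beside 52.1% and 66.9% of all genes, and 500 nM changed 7 and 8, beside 30.6% and 53% of all genes. UGT2B28 is among these calls except with 500 nM at 8 h, with the limit given above on how it entered the test. Of the 7 at 8 h, 4 were left when control libraries 6 and above were used or low-dose replicate 4 was omitted. The share of the R1881 change undone was expressed per library on the log2 CPM scale, with 0 as the R1881 mean and 100% as the DMSO mean. For HSD17B6 at 22 h it was 74.3% ± 3.37 (SD, n = 4) at 500 nM and 100.3% ± 4.29 (SD, n = 5) at 2 µM. For UGT2B15 the shares were 44.9% ± 2.36 and 70.2% ± 3.08, for UGT2B17 35.9% ± 5.00 and 66.6% ± 2.45, and for AKR1C3 30.9% ± 3.77 and 46.5% ± 4.37. The scale matters here, since on linear CPM the 2 µM shares were 27.4% for UGT2B15, 28.02% for UGT2B17 and 17.4% for AKR1C3. On the log2 scale HSD17B10 was undone least at 22 h, at 20.6% ± 15.9 with 2 µM. On linear CPM it was at 24.7%, and AKR1C3 was undone least. In LAPC4 at 22 h the 2 µM shares were 96.9% ± 13.2 for UGT2B11, 96.8% ± 11.1 for UGT2B28, 88.0% ± 21.1 for UGT2B15 and 92.1% ± 36.5 for UGT2B17 (SD, n = 5).

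**Figure D4:**
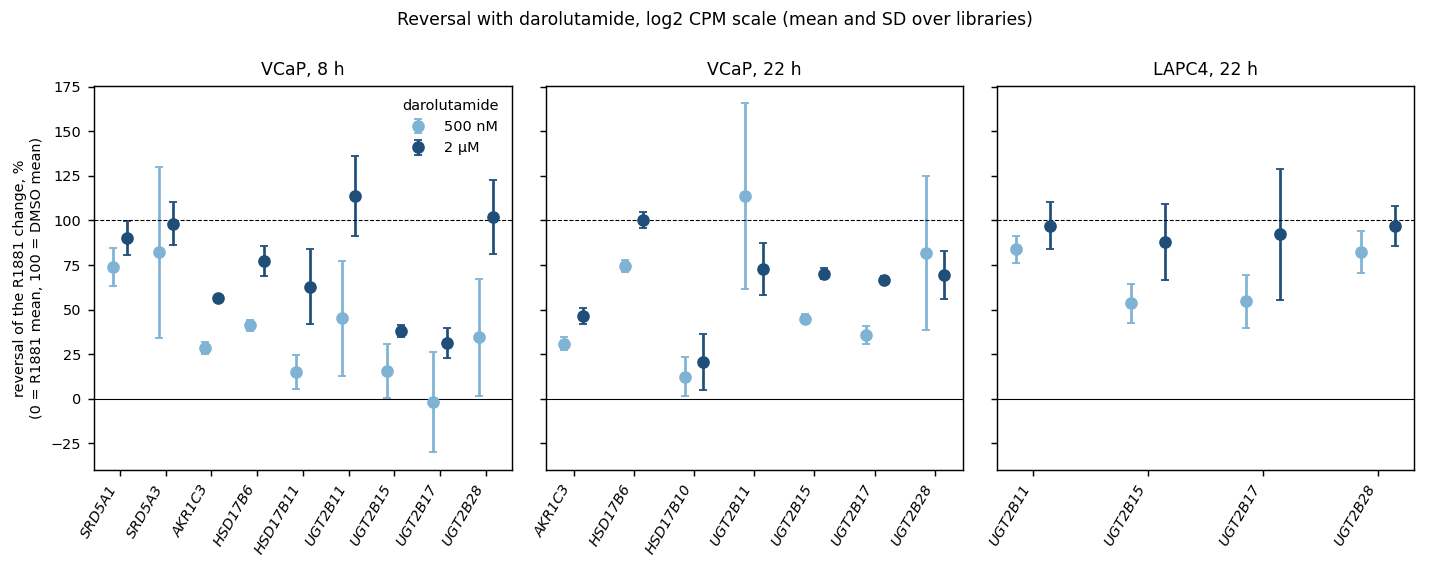
Share of the R1881 change undone by 500 nM and 2 µM darolutamide (mean and SD over libraries, log2 CPM scale, where 0 is the R1881 mean and 100% the DMSO mean) for genes that moved by over 0.5 log2 units, in VCaP at 8 h and 22 h and LAPC4 at 22 h. In VCaP at 22 h HSD17B6 reaches 100.3% with 2 µM while AKR1C3 reaches 46.5%.

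Between the doses, 6 genes differed in VCaP at 8 h and 5 at 22 h, beside 17.6% and 20.2% of all genes. At 22 h these were UGT2B17 at 1.73 (SE 0.241), UGT2B15 at 1.61 (SE 0.191), HSD17B6 at 0.71 (SE 0.0835), AKR1C3 at 0.64 (SE 0.104) and HSD17B11 at -0.26. Each was without overlap of the libraries, which was not counted over all genes. The HSD17B11 value (edgeR adjusted p = 0.0209) was lost without 2 µM replicate 3 or 500 nM replicate 2 or 3 (-0.21 to -0.25). SRD5A1 did not pass, with a 95% interval of -0.02 to 0.31. In LAPC4 0 of the 9 genes passed edgeR's test between the doses at either time (beside 0.0275% and 0.258% of all genes), 1 at 8 h and 2 at 22 h had an unadjusted p under 0.05, and DESeq2 called 0. The 2 at 22 h were UGT2B15, at 0.25 with a 95% interval of 0.08 to 0.41, and UGT2B17, at 0.24 (0.04 to 0.45).

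Against DMSO, VCaP cells with R1881 and 2 µM darolutamide differed in 5 genes at 8 h and 7 at 22 h, beside 27.5% and 59% of all genes. Lower at both times were AKR1C3, UGT2B15 and UGT2B17, each with no overlap of the libraries. SRD5A1 at -0.17 and SRD5A3 at 0.18 were called at 22 h with edgeR adjusted p of 0.0352 and 0.0357, and each fell short in 3 or 4 of the fits that omitted 1 high-dose library. LAPC4 had 0 of 9 genes past edgeR's test and 0 at an unadjusted p under 0.05 at either time, and DESeq2 called 0, beside 0.011% and 0.0165% of all genes in edgeR.

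Levels between genes were compared per kilobase of exon, with DMSO for 22 h. In VCaP HSD17B11 was highest at 17.4 ± 1.94 CPM per kilobase (SD, n = 8), followed by HSD17B6 at 7.40 ± 0.513, UGT2B15 at 6.39 ± 0.506, HSD17B10 at 5.92 ± 0.598 and AKR1C3 at 5.72 ± 0.403. The neighbours UGT2B15, HSD17B10 and AKR1C3 lay within their spread of each other. UGT2B17 at 2.49 ± 0.215 and SRD5A1 at 2.13 ± 0.151 came next, then SRD5A3 at 1.20 ± 0.0695, UGT2B11 at 0.121 ± 0.0625 and UGT2B28 at 0.0559 ± 0.0472.

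In LAPC4 the order was another, led by UGT2B11 at 61.7 ± 3.35 CPM per kilobase (SD, n = 7). UGT2B28 at 19.9 ± 1.47 and HSD17B10 at 19.2 ± 1.71 did not differ beyond their spread. UGT2B15 followed at 10.0 ± 0.841, SRD5A1 at 5.81 ± 0.181, SRD5A3 at 4.46 ± 0.299, UGT2B17 at 3.16 ± 0.207, and HSD17B6 and HSD17B11, within their spread of each other, at 0.811 ± 0.118 and 0.766 ± 0.114. These orders depend on the length used, and per kilobase of coding sequence SRD5A1, for example, rose to 20.9 in VCaP and 57.1 in LAPC4.

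**Figure D5:**
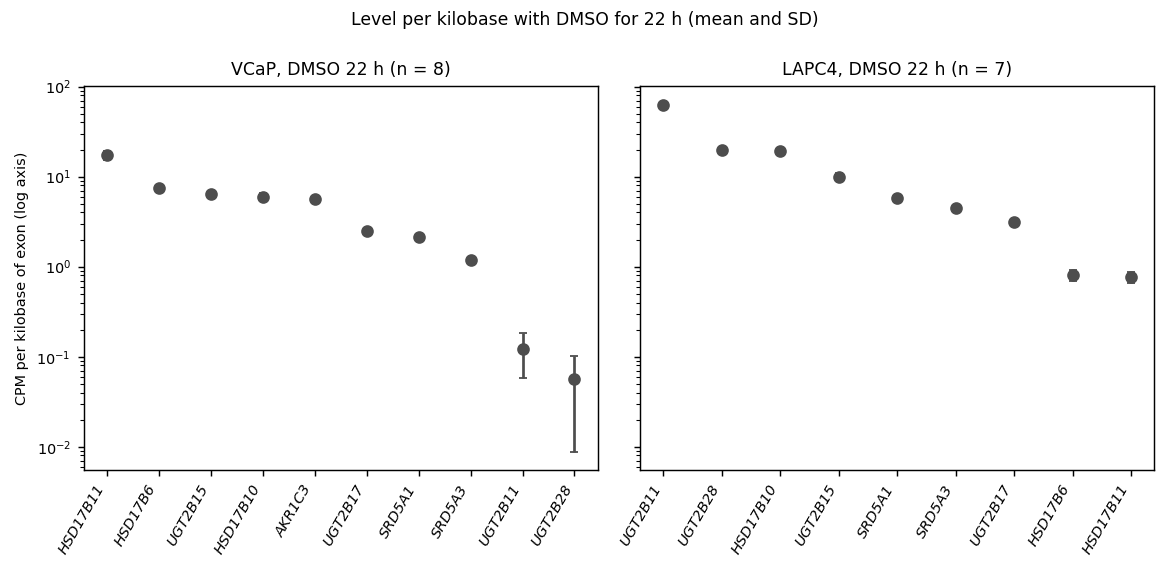
Level of each gene in CPM per kilobase of exon with DMSO for 22 h on a log axis, as mean (points) and SD (bars) over 8 VCaP and 7 LAPC4 libraries. HSD17B11 leads in VCaP and UGT2B11 in LAPC4, and AKR1C3 in LAPC4, listed at 0, is not drawn.

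Setting the lines side by side with DMSO for 22 h, 8 of the 9 genes tested in a joint fit differed, 2 higher and 6 lower in VCaP, beside 87.2% of all genes. HSD17B11 was higher in VCaP by a log2 difference of 4.71 and HSD17B6 by 3.40, while UGT2B11 was 435-fold and UGT2B28 293-fold lower. UGT2B17 did not pass (-0.13, edgeR adjusted p = 0.236). AKR1C3 had 0 reads in the 7 LAPC4 libraries and was at least 1268-fold higher in VCaP, counted against a floor of 3 reads summed over the LAPC4 group, which covers counting error only. The R1881 effect differed between the lines for 8 of 9 genes at 8 h and for 9 of 9 at 22 h, beside 48.6% and 58.6% of all genes. Of these, HSD17B11 did not pass with control libraries 1 to 5 alone, at 0.42 at 8 h (adjusted p = 0.0607) and 0.23 at 22 h (0.305). Cell line cannot be told apart here from anything else that differed between the 2 sets of cultures.

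Levels also differed between the 2 times in vehicle alone. From 8 h to 22 h with DMSO, 7 of 9 genes changed in LAPC4, beside 22.1% of all genes, and 4 of 10 in VCaP, beside 29.8%. In LAPC4 UGT2B11 went from between 85.6 and 108 CPM, median 95.4, to between 130 and 157, median 147, a log2 fold change of 0.60 (edgeR adjusted p = 9.76e-17). UGT2B28 rose by 0.53, UGT2B15 by 0.45 and UGT2B17 by 0.40, the last of which did not pass with control libraries 6 and above alone (0.35, adjusted p = 0.0663). VCaP HSD17B11 rose by 0.68 (edgeR adjusted p = 1.02e-13), from between 20.8 and 29.6 CPM to between 33.2 and 46.3 CPM, without overlap.

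Neighbouring genes of the pathway were taken from 5 lists that leave the 10 genes out. Of the conjugation list, which holds other glucuronosyltransferases, sulfotransferases and their suppliers, 12 genes were tested in VCaP with R1881 at 22 h, and 4 were higher and 7 lower, where 77.4% of all genes were called. UGT2B7 changed by -3.20 (SE 0.219, from 23 to 48 reads per library to 1 to 5) and UGT2B10 by -2.67 (SE 0.324, from 10 to 26 reads to 0 to 4), both close relatives of the members. UGT8, a ceramide galactosyltransferase, fell by 1.57, and the steroid sulfatase STS rose by 0.94. UGDH, which makes the glucuronic acid donor for these enzymes, rose by 1.55 at 8 h and by 0.65 at 22 h (SE 0.0388, edgeR adjusted p = 4.93e-22).

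UGT2B10 moved the other way in LAPC4. There it rose with R1881 at 22 h by 0.65 (SE 0.0551, edgeR adjusted p = 2.34e-14), from 12.9 ± 0.998 to 20.3 ± 1.09 CPM (SD, n = 7 and 10), and stood at 13.1 ± 0.904 CPM with 2 µM darolutamide. UGDH rose by 0.20, and PAPSS1, which makes the sulfate donor, changed by -0.10. These 3 were the called genes among 11 tested in the list, beside 13.3% of all genes. UGT2B10 shares 199 of the 50-base stretches of UGT2B11 and 101 of those of UGT2B28, both more abundant in LAPC4, and its counts are uncertain to that extent. UGT2B7 had 0 to 8 reads per LAPC4 library.

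Of 19 genes of the steroid synthesis list tested in VCaP, 5 were higher and 9 lower with R1881 at 22 h, a share near the 77.4% of all genes. AKR1C1 and AKR1C2, neighbours of AKR1C3 that inactivate androgens and progestins, changed by -3.19 (SE 0.109) and -3.34 (SE 0.117), and with 2 µM darolutamide rose from R1881 by 1.20 and 1.47. They share sequence with AKR1C3, and like it had at most 2 reads in any LAPC4 library. CYB5A, the cytochrome b5 that assists CYP17A1, rose by 1.48 (SE 0.0275). SRD5A2, HSD3B1, CYP17A1 and HSD17B3, other enzymes of androgen synthesis, had 0 to 7 reads in every library of both lines. In LAPC4 3 of 17 genes were called, beside 13.3% of all genes, HSD11B2 at 0.68, HSD17B7 at 0.12 and RDH11 at -0.13.

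The dolichol and N-glycan list, chosen beside SRD5A3, had 11 of 12 genes higher and 0 lower in VCaP at 22 h and a median of 0.69, where 7201 of all 19266 genes were higher, 77.4% were called and the median was -0.03. The 3 with the smallest adjusted p were MPDU1 (1.13), DPAGT1 (1.06) and ALG2 (0.89), and SRD5A3 itself fell. At 8 h 6 were higher and 3 lower, where 66.9% of all genes were called. In LAPC4 at 22 h 0 of these 12 passed edgeR's test, beside 13.3% of all genes, 0 had an unadjusted p under 0.05 and DESeq2 called 0. Another list was chosen beside HSD17B10 for mitochondrial ribonuclease P and branched-chain amino acid breakdown. Of its 5 genes tested, 1 rose and 4 fell in VCaP at 22 h, beside 77.4% of all genes called. Among the 5 were ACADSB (-1.17), BCKDHB (-0.96) and ACAT1 (-0.51). In LAPC4, beside 13.3% of all genes, ACADSB fell by 0.46 and ACAT1 rose by 0.10. Of 6 transporters listed, 3 were tested and all 3 rose in VCaP at 22 h, again beside 77.4% of all genes called. ABCC4, an exporter of steroid conjugates, was at 2.31, ABCC1 at 1.06 and SLCO4A1 at 0.58. In LAPC4 2 of the 3 were called, ABCC4 at 1.03 and ABCC1 at 0.35, beside 13.3% of all genes.

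By likeness over the 8 VCaP group means of log2 CPM, the genes closest to UGT2B17 were GLI3 (Pearson r = 0.993), UGT2B15 (0.992) and POLR3C (0.991). Closest to SRD5A1 were PDK4 (0.989), FRMD3 (0.983) and ICE2 (0.981). These are descriptions over 8 points that share libraries.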

How the data were processed

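RNA-seq of VCaP and LAPC4 cells was analysed in 112 libraries of 16 groups, with group and replicate number taken from the labels. Per the labels and the study's methods, the authors used polyA-selected stranded libraries and single-end reads of 50 cycles. Reads were demultiplexed with bcl2fastq 2.17, aligned to GRCh38 with STAR and counted per gene with featureCounts, whose settings are not given in the sources used here. The deposited values are raw read counts, not normalized. The methods name 5 biological replicates per condition, while groups hold 4 to 10 libraries, all of which were used. Replicate numbers 6 and above occur only among DMSO and R1881 libraries, so these controls were also split there. The labels do not say whether they were made together with the others. Counts carry no molecular identifiers, so floors cover counting error only.

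The 10 members and all gene lists were chosen with earlier results of these data known. With R 4.3.3 and edgeR 4.0.16, genes that reached 10 reads in 4 or more libraries of a line were scaled by TMM and fitted over its 8 groups (glmQLFit, glmQLFTest), and a gene was called at a Benjamini-Hochberg adjusted p under 0.05. Lines were compared in a joint fit of 20892 genes. SE is the size of the log2 fold change over the root of its F statistic, 95% intervals follow from the SE, and log2 CPM has a prior count of 2. Besides the members, the text names per list and line the 3 genes with the smallest adjusted p for R1881 at 22 h among those called, 9 further enzymes set by name, and the 3 genes most like UGT2B17 and SRD5A1. Alternatives were DESeq2 1.42.0, no filter, filterByExpr, only the compared groups, a GC slope covariate, control replicates 1 to 5 or 6 and above, a replicate block, omission of each darolutamide library, linear CPM and coding length. Both control subsets hold fewer libraries than the main fit. With DMSO for 22 h the numbers end at 7 in LAPC4 and at 8 in VCaP, so replicates 6 and above are few there. Among 382 pairs of libraries of the same group, 0 were identical, and pairs across groups were not compared. Scripts were tested on simulated data.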

Additional observations from a re-analysis of the deposited data

Results flagged for a closer look

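Of 160 gene and group combinations of 4 to 10 libraries, 7 held a library far from the others, where chance gives about 1 in 20. SRD5A3 stood at 8.03 CPM in replicate 2 of VCaP with DMSO for 22 h (nearest 9.14), at 39.3 CPM in replicate 4 of LAPC4 with DMSO for 22 h (nearest 34.5) and at 37.7 CPM in replicate 9 of LAPC4 with R1881 for 22 h (nearest 33.0). HSD17B11 stood at 63.8 CPM in replicate 3 of VCaP with R1881 for 22 h (nearest 55.9). The other 3 were single AKR1C3 reads in LAPC4, at 0.0522 CPM (500 nM darolutamide, 22 h), 0.0410 CPM (2 µM, 8 h) and 0.0571 CPM (R1881, 22 h).

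Differences between time points were tested as an interaction in the edgeR fit. In VCaP the R1881 effect at 22 h minus that at 8 h was -1.62 log2 units for SRD5A1, -1.04 for AKR1C3, -1.003 for HSD17B6, 0.48 for HSD17B10, -0.19 for HSD17B11, -2.88 for UGT2B15 and -2.92 for UGT2B17. The HSD17B11 value did not pass in 8 alternatives, which gave -0.03 (replicate block and GC slope, adjusted p = 0.707) to -0.18. In LAPC4 it was 0.36 for UGT2B11, -0.51 for UGT2B15, -0.48 for UGT2B17 and 0.42 for UGT2B28.

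Differences between the lines were tested in the joint fit, as the VCaP effect minus the LAPC4 effect. At 8 h this was 1.19 for SRD5A1, -0.58 for SRD5A3, -1.89 for HSD17B6, 0.43 for HSD17B11, 1.47 for UGT2B11, -3.73 for UGT2B15, -3.14 for UGT2B17 and 1.56 for UGT2B28. At 22 h it was -0.42 for SRD5A1, -0.33 for SRD5A3, -2.81 for HSD17B6, 0.69 for HSD17B10, 0.35 for HSD17B11, 1.02 for UGT2B11, -6.03 for UGT2B15, -5.51 for UGT2B17 and 1.58 for UGT2B28. The HSD17B11 value at 22 h did not pass in 6 alternatives, which gave 0.22 to 0.25, among them DESeq2 (0.25, adjusted p = 0.128) and control replicates 1 to 5 (0.23, 0.305), and the 8 h value did not pass with control replicates 1 to 5 (0.42, 0.0607).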

How the results depend on the processing

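No called value changed direction. Each called value of a single gene was set against each alternative that applied to it. Of these combinations, 1551 kept and 103 lost the call, and the same value can be among them many times. For values that were not called, 126 such combinations turned sign, 0 of them to a call, and 37 were called. Among the 37 was HSD17B10 with R1881 in LAPC4 at 22 h with the block and a GC slope (-0.13, edgeR adjusted p = 0.0207). Deviations of same-numbered libraries correlated at -0.00511 on average in VCaP (149 pairs, 33 of them over 0.1) and at 0.0549 in LAPC4 (161 pairs, 57 over 0.1). The numbers were not taken as pairing the libraries, since no label says what a number stands for. These correlations cannot decide it, because libraries with different numbers were not compared. With the replicate block, the members called for 2 µM against R1881 at 8 h in LAPC4 went from 2 to 1, for 500 nM from 1 to 0, and for 500 nM in VCaP at 8 h from 7 to 4, and no other count moved by over 1.5 times. With the block and a GC slope the LAPC4 counts were 4 and 2, and 1 each instead of 0 for 2 µM against 500 nM at 22 h and 2 µM against DMSO at 8 h. DESeq2 and the GC slope alone also gave 2 for 500 nM at 8 h in LAPC4. With control replicates 6 and above, 500 nM at 8 h gave 4 in VCaP and 0 in LAPC4, the LAPC4 time course in DMSO 4 instead of 7 and the LAPC4 time effect of R1881 1 instead of 4. With control replicates 1 to 5 the VCaP time course in DMSO gave 2 instead of 4. Leaving out single darolutamide libraries gave 4 to 6 for 500 nM at 8 h in VCaP and 1 to 2 in LAPC4. The cause was not tested.

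Per kilobase of coding sequence, VCaP levels with DMSO for 22 h were 45.1 for HSD17B11, 23.1 for AKR1C3, 21.3 for HSD17B10, 20.9 for SRD5A1, 17.7 for HSD17B6, 9.68 for SRD5A3, 8.57 for UGT2B15 and 4.02 for UGT2B17. In LAPC4 they were 91.7 for UGT2B11, 69.3 for HSD17B10, 57.1 for SRD5A1, 36.0 for SRD5A3, 23.2 for UGT2B28, 13.5 for UGT2B15, 5.11 for UGT2B17, 1.98 for HSD17B11 and 1.94 for HSD17B6. On linear CPM the shares undone in VCaP at 22 h by 2 µM and 500 nM were 17.4% and 8.90% for AKR1C3, 27.4% and 8.35% for UGT2B15 and 28.02% and 7.40% for UGT2B17, with 54.6% for HSD17B6 at 500 nM and 83.6% for UGT2B28 at 2 µM. At 8 h they were 31.5% and 11.4% for AKR1C3 and 65.9% and 27.5% for HSD17B6, with 12.9% for UGT2B15 and 12.4% for UGT2B17 at 2 µM. With control replicates 1 to 5 the shares were 54.4% for AKR1C3 at 8 h (2 µM), and at 22 h 91.6% for UGT2B11 and 86.0% for UGT2B28 (2 µM) and 40.7% for UGT2B15 (500 nM). Depth limits UGT2B11 and UGT2B28 in VCaP, UGT2B15 and UGT2B17 under R1881 in VCaP, and AKR1C3 in LAPC4.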
